A study of Mus musculus with 12 samples.

Results

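The genes described here are 10 genes of the retinoic acid pathway, taken as the entries of the testis and sperm count tables whose symbol was Stra8, Rara, Rarg, Aldh1a1, Aldh1a2, Aldh1a3, Rdh10, Dhrs3, Cyp26b1 or Crabp1. They were 10 of 23502 entries in the testis table and 10 of 51826 in the sperm table, and each gene had a single entry in both. All 10 testis entries and 8 of the sperm entries had enough counts to be tested. Stra8 and Crabp1 did not pass the filter on low counts in sperm.

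Retinoic acid is made from retinol in 2 steps, by retinol dehydrogenases and then by retinaldehyde dehydrogenases, is held by cellular binding proteins, acts through nuclear receptors that bind DNA, and is removed by CYP26 enzymes. In the testis it drives the differentiation of spermatogonia and their entry into meiosis, and Stra8 is the germ cell gene best known to be switched on by it. Several of the genes are known for different cells of the tubule, with Aldh1a1 in Sertoli cells and Aldh1a2 in germ cells.

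RNA-seq libraries were compared from mice that lacked Xap5 (Fam50a) or Xap5l (Fam50b), a pair of related nuclear proteins studied here for their part in spermatogenesis. The groups were WT and Xap5 cKO testes at postnatal day 16 (P16), and WT and Xap5l KO sperm from the cauda epididymis at P56, with 3 libraries in each group. The Xap5l KO and the floxed Xap5 lines were both made with CRISPR/Cas9 on the C57BL/6J background. Xap5l KO mice carried a mutation in all cells. Xap5 cKO mice carried floxed Xap5 and Cre from a Stra8-GFPCre knock-in, so Cre acts in germ cells from the stage that expresses Stra8 and the somatic cells of the testis keep Xap5. The cKO animals therefore also carried a modified Stra8 locus. The control libraries are labelled WT, and the study names its cKO controls as Xap5 fl/Y, a notation without a Cre allele. The effect of the inserted cassette on the Stra8 transcript is not given in the sources used here, so an effect of the knock-in allele on Stra8 and an effect of losing Xap5 cannot be told apart in these libraries.

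The libraries held 32251198 to 36759054 counts in testes and 38881197 to 52308452 in sperm. Levels are given as CPM, counts scaled to library size with TMM normalization, as mean ± SD with n = 3, and log2 fold changes are mutant over WT fitted with the quasi-likelihood method of edgeR, with p-values adjusted over all genes of the tissue by Benjamini-Hochberg. A gene rose or fell when its adjusted p was under 0.05. Xap5l was almost lost from Xap5l KO sperm, at 0.356 ± 0.195 CPM against 12.3 ± 4.48 in WT, while Xap5 in whole testes was 19.6 ± 1.43 CPM in Xap5 cKO and 24.7 ± 2.62 in WT. Each of these genes also fell in the other comparison. The log2 fold change of Xap5l in Xap5 cKO testes was -6.48. Xap5 went from 16.1 ± 1.05 CPM in WT sperm to 9.46 ± 1.46 in Xap5l KO sperm (-0.76, edgeR adjusted p = 0.0393). Of the WT testis libraries, replicate 3 was the one most like those of Xap5 cKO, with summed pachytene spermatocyte markers at 757 CPM against 1580 and 1640.

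Cell type markers differed with genotype in the testis libraries, and the fold changes below stand beside these values. All 8 markers of leptotene and zygotene spermatocytes fell, their summed level being 2120 to 2470 CPM in WT and 862 to 1110 in Xap5 cKO testes. Of 8 pachytene markers 6 fell, with sums of 757 to 1640 and 42.5 to 71.1 CPM. Of 8 spermatogonial markers 2 rose and 3 fell, with sums of 402 to 429 and 330 to 382 CPM. Of 12 Sertoli cell markers 11 rose under TMM scaling, with sums of 2800 to 3020 CPM in WT and 4740 to 4860 in Xap5 cKO and a median log2 fold change of 0.70. Of the other somatic lists, 4 of 7 Leydig cell markers, 3 of 5 peritubular myoid markers and 6 of 7 leukocyte markers rose under the same scaling. None of the markers in these lists was at 0 in all libraries. In bulk tissue, fewer cells of a type and less RNA per cell cannot be told apart. For each of the 10 genes the testis value is therefore also given with the libraries scaled to the 12 Sertoli cell markers instead of by TMM, and for other genes where this scaling ends or makes a call. This scaling takes the level of these markers as equal between genotypes, so a gene that moved with them lies near 0 by construction. It moved the median log2 fold change of all genes from -0.01 to -0.71.

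The sequences around the transcription starts are shown for the 4 genes that changed more than 2-fold in Xap5 cKO testes, because retinoic acid receptors bind direct repeats of a hexamer close to AGGTCA. RefSeq windows of GRCm38.p6, from 250 bases before to 50 after a start, were found for 8 of the 10 genes. Both strands were searched for AGGTCA and for its variants GGGTCA (changed in the first letter), AGTTCA (in the third) and GGTTCA (in both), no matches overlapped each other in these windows, and matches are in capitals. The Stra8 window lay at chr6:34920698-34920997 on the plus strand, around a start that lies 785 bases inside the GENCODE gene. Aldh1a2 was read from chr9:71215539-71215838, Crabp1 from chr9:54764498-54764797 and Dhrs3 from chr4:144892577-144892876, all on the plus strand.
Stra8: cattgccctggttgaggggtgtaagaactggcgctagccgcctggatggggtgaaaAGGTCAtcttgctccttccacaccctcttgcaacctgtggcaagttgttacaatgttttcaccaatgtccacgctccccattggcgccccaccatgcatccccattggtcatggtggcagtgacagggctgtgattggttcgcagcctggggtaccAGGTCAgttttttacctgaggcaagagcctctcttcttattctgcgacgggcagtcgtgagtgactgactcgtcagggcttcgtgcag
Aldh1a2: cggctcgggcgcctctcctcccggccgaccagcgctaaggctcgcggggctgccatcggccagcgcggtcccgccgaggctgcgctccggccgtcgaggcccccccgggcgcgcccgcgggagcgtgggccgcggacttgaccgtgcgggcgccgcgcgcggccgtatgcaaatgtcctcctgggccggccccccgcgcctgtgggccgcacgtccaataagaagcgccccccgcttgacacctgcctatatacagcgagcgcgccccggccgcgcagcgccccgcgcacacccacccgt
Crabp1: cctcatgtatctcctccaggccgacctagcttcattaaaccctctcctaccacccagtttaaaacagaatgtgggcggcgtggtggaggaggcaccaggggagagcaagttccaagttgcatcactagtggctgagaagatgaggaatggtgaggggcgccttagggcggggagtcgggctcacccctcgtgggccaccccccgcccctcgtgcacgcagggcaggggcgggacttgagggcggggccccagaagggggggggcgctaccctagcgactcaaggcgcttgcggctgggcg
Dhrs3: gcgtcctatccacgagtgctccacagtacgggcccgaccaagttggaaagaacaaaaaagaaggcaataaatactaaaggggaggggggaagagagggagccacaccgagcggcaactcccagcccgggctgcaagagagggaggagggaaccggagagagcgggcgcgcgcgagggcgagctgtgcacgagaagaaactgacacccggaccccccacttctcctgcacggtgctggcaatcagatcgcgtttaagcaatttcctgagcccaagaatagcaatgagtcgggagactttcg
The Stra8 window held AGGTCA at 2 places, both on the strand of the gene, with their first letters at -194 and -38 counted from the start. These copies, at chr6:34920754-34920759 and chr6:34920910-34920915, did not lie side by side as in a direct repeat. AGGTCA was present in 16.3% of 32851 RefSeq windows of the same length, at 2 or more places in 1.81%, and any of the 4 hexamers in 43.7%. The windows of Aldh1a2, Crabp1 and Dhrs3 held no match. These matches describe letters in the window, and binding was not measured here.

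In Xap5 cKO testes 5 of the 10 genes rose, 4 fell and 1 did not pass the test. This compares with 53.1% of the 16821 genes tested in this tissue that passed, 25.0% higher and 28.1% lower. Past a 2-fold change, 1 gene was higher (Dhrs3) and 3 were lower (Stra8, Aldh1a2 and Crabp1), against 15.1% of all genes tested, 4.15% higher and 10.9% lower. The WT and cKO libraries did not overlap for any of the 10 genes, as they did not for 62.3% of all genes tested, 29.9% higher and 32.4% lower. Scaled to the Sertoli cell markers, 1 gene rose and 5 fell, against 1.91% of all genes tested that rose and 63.2% that fell, and the values that change sign or call are given with each gene.

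**Figure D1:**
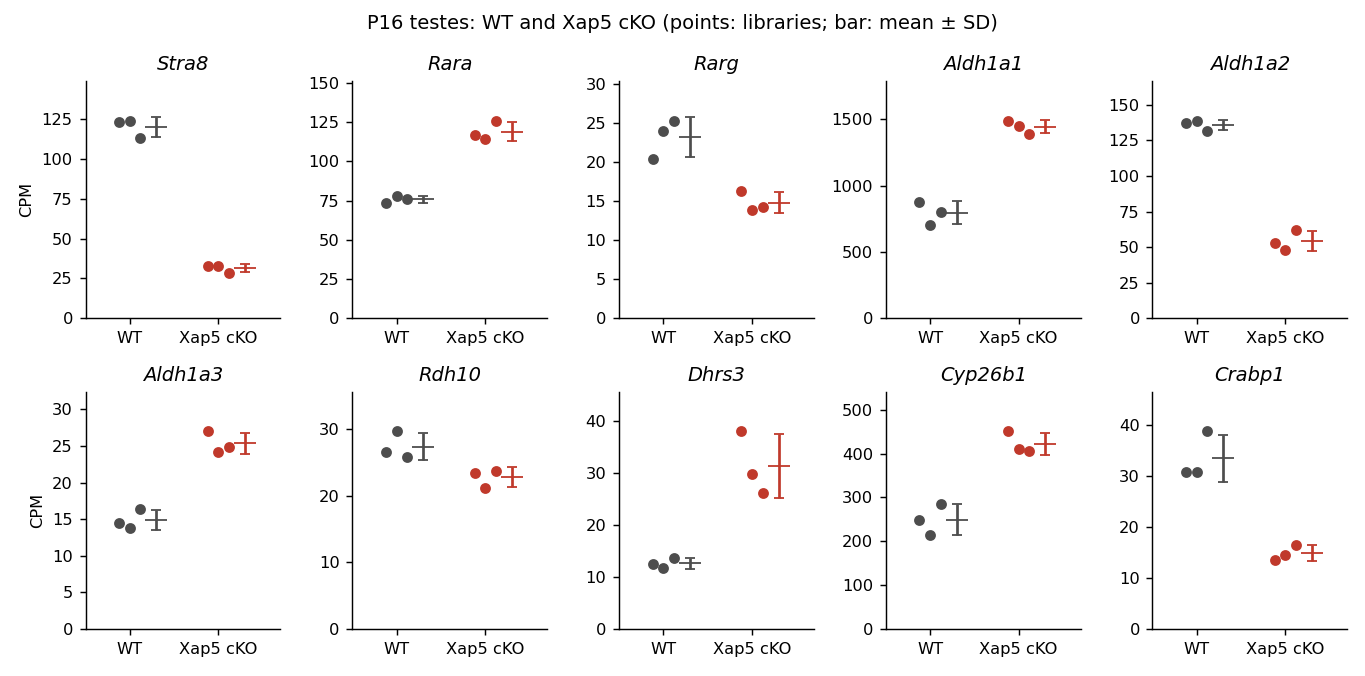
Each panel plots 1 gene in P16 testes, with CPM on the vertical axis, a point for each library and a bar for mean ± SD of 3 libraries. The Xap5 cKO points lie wholly above or wholly below the WT points in all 10 panels under TMM scaling, with the widest fold separation for Stra8.

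Stra8 (ENSMUSG00000029848.11, chr6:34920163-34939344 in GRCm38), needed in germ cells for the start of meiosis, was at 123, 124 and 113 CPM in the WT libraries and at 32.6, 33 and 28.6 CPM in the Xap5 cKO libraries. The 3 WT values lay close together and every cKO value was under 34 CPM. Stra8 fell 3.82-fold, a log2 fold change of -1.93 with a 95% interval of -2.13 to -1.74 (edgeR quasi-likelihood test, SE 0.0848, adjusted p = 6.8e-06). Scaled to the Sertoli cell markers, its log2 fold change was -2.64. The knock-in of the Cre line lies in this gene, so its own effect on these values cannot be told apart.

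The receptors moved in opposite directions under TMM scaling. Rara (ENSMUSG00000037992.16, chr11:98927818-98974942), a receptor known from Sertoli cells as well as germ cells, was at 73.5, 78 and 75.9 CPM in WT and 117, 114 and 126 CPM in Xap5 cKO testes. All cKO libraries were above all WT libraries. Rara rose 1.57-fold by TMM (log2 fold change 0.65, SE 0.0683, edgeR adjusted p = 7.69e-05), but its sign turned to -0.05 (adjusted p = 0.606) when the libraries were scaled to the Sertoli cell markers. Rarg (ENSMUSG00000001288.15, chr15:102234938-102257517), the receptor known from differentiating spermatogonia, was at 20.4, 24 and 25.3 CPM in WT and 16.3, 13.9 and 14.2 CPM in cKO. Its lowest WT library and highest cKO library were closer than in most of the other genes, but did not overlap. Rarg fell 1.57-fold (log2 fold change -0.65, SE 0.137, edgeR adjusted p = 0.0035), and the value was -1.34 scaled to the Sertoli cell markers.

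The retinaldehyde dehydrogenases, which make retinoic acid, also split. Aldh1a1 (ENSMUSG00000053279.8, chr19:20492715-20643465), the enzyme of Sertoli cells, was at 876, 703 and 803 CPM in WT and at 1490, 1450 and 1390 CPM in Xap5 cKO testes. Every cKO library was far above the highest WT library. Aldh1a1 rose 1.82-fold by TMM (log2 fold change 0.87, SE 0.0774, edgeR adjusted p = 3.61e-05), and with the Sertoli cell scaling the value was 0.16 and did not pass (adjusted p = 0.185).

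Aldh1a2 (ENSMUSG00000013584.5, chr9:71215789-71296243), the enzyme of germ cells, was at 137, 139 and 132 CPM in WT and at 53.2, 48.2 and 61.8 CPM in cKO. The WT libraries differed little and were all above the cKO libraries. Aldh1a2 fell 2.51-fold (log2 fold change -1.33, SE 0.0934, edgeR adjusted p = 1.55e-05), with -2.03 under the Sertoli cell scaling. Aldh1a3 (ENSMUSG00000015134.15, chr7:66390890-66427517), the third enzyme of the family and the lowest of them here, was at 14.5, 13.8 and 16.4 CPM in WT and 27, 24.2 and 24.8 CPM in cKO. All its cKO libraries were higher, and the gene rose 1.7-fold by TMM (log2 fold change 0.77, SE 0.125, edgeR adjusted p = 0.000808). Its value was 0.07 with the Sertoli cell scaling, which did not pass (adjusted p = 0.651).

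Of the enzymes that interconvert retinol and retinaldehyde, Rdh10 (ENSMUSG00000025921.7, chr1:16105774-16133734) oxidises retinol, the first step towards retinoic acid. It was at 26.6, 29.7 and 25.9 CPM in WT and 23.5, 21.1 and 23.8 CPM in Xap5 cKO testes. The groups did not overlap, but the log2 fold change of -0.26 (95% interval -0.52 to -0.01) did not pass the edgeR test (adjusted p = 0.0738). With the Sertoli cell scaling Rdh10 did pass, at -0.97 (adjusted p = 0.000113). Dhrs3 (ENSMUSG00000066026.14, chr4:144892827-144928209), which reduces retinaldehyde back to retinol, was at 12.5, 11.7 and 13.7 CPM in WT and 38.1, 29.9 and 26.2 CPM in cKO. The cKO libraries spread more widely than the WT libraries, and the lowest of them was above all 3. Dhrs3 rose 2.49-fold (log2 fold change 1.31, SE 0.159, edgeR adjusted p = 0.000151), the largest rise of the 10 genes, and still rose with the Sertoli cell scaling, by 0.62 on the log2 scale (adjusted p = 0.00786).

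Cyp26b1 (ENSMUSG00000063415.12, chr6:84571414-84593908) breaks retinoic acid down and is known from the somatic cells of the testis. Its level was 248, 215 and 285 CPM in WT and 451, 410 and 405 CPM in Xap5 cKO testes. The WT libraries varied more than the cKO libraries and were all lower. Cyp26b1 rose 1.69-fold by TMM (log2 fold change 0.76, SE 0.0976, edgeR adjusted p = 0.000214), and was at 0.06 with the Sertoli cell scaling (adjusted p = 0.586). Crabp1 (ENSMUSG00000032291.8, chr9:54764748-54773110), which holds retinoic acid in the cytoplasm and is known from spermatogonia, was at 30.8, 30.7 and 38.7 CPM in WT and 13.5, 14.5 and 16.5 CPM in cKO. Its cKO libraries were all lower, and WT replicate 3 was the highest library. Crabp1 fell 2.25-fold (log2 fold change -1.17, SE 0.139, edgeR adjusted p = 0.000137), with -1.87 under the Sertoli cell scaling.

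The same 5 and 4 calls by count were made with each of the 6 libraries left out. Without WT replicate 3, the library nearest to the cKO libraries, the log2 fold change was -1.98 for Stra8, -0.58 for Rarg, 0.84 for Aldh1a3, 0.87 for Cyp26b1, -1.05 for Crabp1 and -0.30 for Rdh10.

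**Figure D2:**
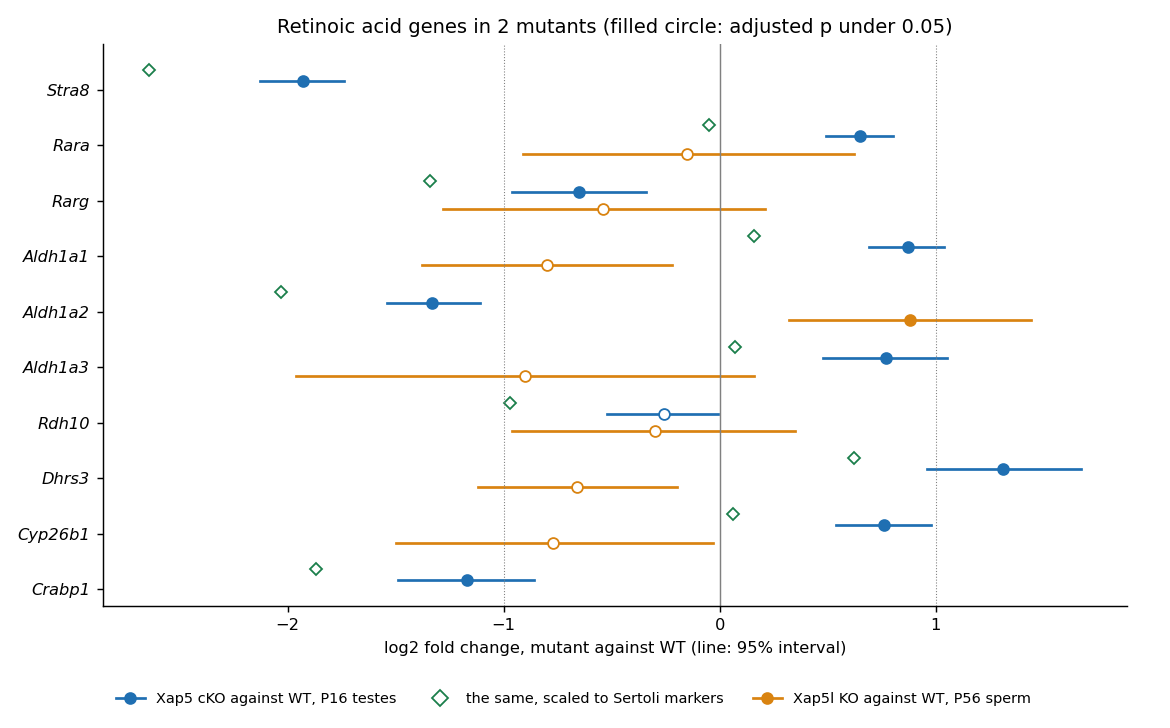
The horizontal axis is the log2 fold change of each gene, mutant over WT, with lines for 95% intervals, filled circles for an adjusted p under 0.05 and dotted lines at a 2-fold change. Diamonds show the testis values scaled to the Sertoli cell markers, where Rara (-0.05), Aldh1a1 (0.16), Aldh1a3 (0.07) and Cyp26b1 (0.06) sit at the zero line. Genes that moved with these markers lie near zero by the construction of that scaling. Stra8 and Crabp1 have no sperm value because they were not tested there.

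Levels were compared between genes per kilobase of exon. In WT testes Aldh1a1 was the most abundant, at 161 ± 17.6 CPM per kb, followed by Stra8 at 66.6 ± 3.3, Aldh1a2 at 60.2 ± 1.61, Cyp26b1 at 46.6 ± 6.56 and Crabp1 at 41.6 ± 5.72. The ranges of Cyp26b1 and Crabp1 overlapped, and no other neighbours in the order did. The other 5 genes lay between 17.4 (Rara) and 3.22 (Aldh1a3) CPM per kb. In Xap5 cKO testes Aldh1a1 stayed first, at 293 ± 10.4 CPM per kb, Cyp26b1 came next at 78.8 ± 4.69 and then Rara at 27.2 ± 1.5, its range overlapping that of Aldh1a2 at 24 ± 3.03. Stra8 was sixth at 17.4 ± 1.35 CPM per kb, overlapping Crabp1 at 18.5 ± 1.92, and Rarg was last at 3.48 ± 0.306.

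Ratios of 2 genes within a library do not depend on how libraries are scaled to each other. They still depend on the mix of cells, whose markers differed between the testis genotypes, and the part of the cell mix in these ratios was not tested. The log2 ratio of Aldh1a2 to Aldh1a1, per kilobase, was -1.55, -1.21 and -1.48 in the WT testis libraries, and the Xap5 cKO libraries were at -3.69, -3.79 and -3.37. Aldh1a2 was thus the scarcer enzyme in every library, and the ratio was 4.59-fold lower in cKO (difference -2.20 on the log2 scale). The log2 ratio of Rarg to Rara was -1.68 ± 0.13 in WT and -2.97 ± 0.16 in cKO, 2.45-fold lower (difference -1.29). The log2 ratio of Dhrs3 to Rdh10 was -0.61 ± 0.22 in WT and 0.95 ± 0.28 in cKO, 2.95-fold higher (difference 1.56), so that Rdh10 was the more abundant in every WT library and Dhrs3 in every cKO library. No ratio overlapped between the testis groups. Each had p = 0.1 in the two-sided exact permutation test, which is the smallest p that 3 against 3 libraries allow, and 0.12 after Benjamini-Hochberg adjustment over the 6 ratios of both tissues.

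**Figure D3:**
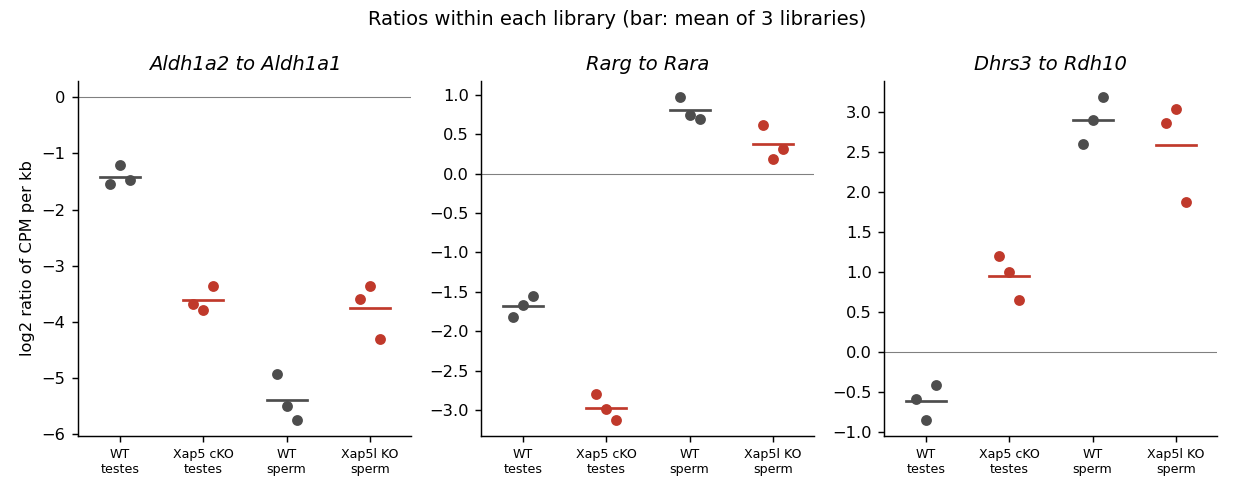
Each panel plots the log2 ratio of 2 genes, from CPM per kilobase, in every library (points) with the mean of 3 libraries (bars). The testis groups are apart in all 3 ratios, and in sperm the ratio of Dhrs3 to Rdh10 overlaps between genotypes.

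Of 47 other genes of retinoid uptake, metabolism and signalling, 34 were tested in testes, of which 10 rose and 7 fell under TMM scaling, while 2 rose and 18 fell when scaled to the Sertoli cell markers. Their median log2 fold change was 0.25, against -0.01 over all genes tested. Among all 16821 genes tested, 25.0% rose and 28.1% fell under TMM scaling, and 1.91% rose and 63.2% fell with the Sertoli cell scaling. Genes of retinol uptake and storage were among the largest changes. Stra6, the cell surface receptor for retinol-binding protein, fell from 42.5 ± 0.587 to 17.3 ± 2.85 CPM (log2 fold change -1.30, edgeR adjusted p = 5.67e-05). Lrat, which esterifies retinol for storage, fell from 8.78 ± 0.957 to 2.8 ± 1.15 CPM (log2 fold change -1.65), and Rbp4, the carrier of retinol, from 18.4 ± 2.05 to 8.07 ± 1.1 CPM (-1.19). These 3 genes changed in the direction of Aldh1a2. Retsat, a retinol saturase, rose from 18.9 ± 2.23 to 39 ± 2.96 CPM (1.05), and the alcohol dehydrogenase Adh1 rose from 9.84 ± 2.06 to 30.7 ± 9.2 CPM (1.64). Fabp5, a fatty acid binding protein that also carries retinoic acid, rose by 0.76 under TMM, but was at 0.06 with the Sertoli cell scaling and did not pass (edgeR adjusted p = 0.686). Dgat1, an acyltransferase, fell by 0.70 on the log2 scale. The 2 rises of this list that passed with the Sertoli cell scaling were those of Adh1 (0.93) and Retsat (0.35). The reads of Adh1 and Retsat could include those of antisense genes with which their exons overlap, by 136 and 650 bases, because the use of strand in counting is not given. Rxra and Rxrb, the partner receptors, did not pass in the edgeR fit with TMM and all libraries. Rxra was at 57.6 ± 8.28 CPM in WT and 69.7 ± 5.09 in cKO (log2 fold change 0.27), and Rxrb at 31 ± 1.91 and 35 ± 3.69 (0.17). Rxra passed as higher with DESeq2 and without WT replicate 3, and Rxrb did with the entries of one gene summed. Both fell with the Sertoli cell scaling (-0.42 and -0.53). Cyp26a1, another enzyme that degrades retinoic acid, was at 7.92 ± 0.583 and 6.83 ± 0.575 CPM (-0.21, edgeR adjusted p = 0.342), and fell with the Sertoli cell scaling (-0.91, adjusted p = 0.00134).

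Of 21 genes of spermatogonial differentiation, meiotic entry and general retinoic acid response, 20 were tested, 5 rose and 14 fell, with a median log2 fold change of -0.61. Over all genes tested 25.0% rose and 28.1% fell. All 6 genes of meiotic entry fell, as Stra8 did, though Sycp3, of the synaptonemal complex, stood at the threshold. It was at 470, 483 and 405 CPM in WT and 295, 322 and 439 CPM in cKO, overlapping (log2 fold change -0.36, edgeR adjusted p = 0.049), and the call was lost in 4 of the 6 fits with a library left out (WT replicate 1 or 2, Xap5 cKO replicate 1 or 2), with RLE factors and with the replicate block. Of its exon bases 660 overlap Chpt1 on the other strand. Meioc and Ythdc2, partners in the RNA regulation that lets germ cells into meiosis, fell from 384 ± 40.4 to 114 ± 4.07 CPM (log2 fold change -1.75, edgeR adjusted p = 8.8e-06) and from 143 ± 2.45 to 55.7 ± 4.32 CPM (-1.36, adjusted p = 8.8e-06). Prdm9, which marks recombination sites, fell from 48.5 ± 4.31 to 20.2 ± 1.02 CPM (-1.27). Among genes of spermatogonial differentiation, Dmrtb1 fell most, from 92.6 ± 12.6 to 21.8 ± 1.38 CPM (-2.09), and the transcription factors Sohlh1 and Sall4 fell by 1.15 each on the log2 scale, with 526 bases of the Sall4 exons overlapping an antisense gene. Kitl, the ligand that Sertoli cells make for the receptor Kit, rose from 210 ± 35 to 444 ± 16.4 CPM (1.08). Of the general response genes Tgm2, Rarres1 and Rarres2 rose, with Rarres2 at 6.73 ± 0.695 CPM in WT and 17.9 ± 2.15 in cKO (1.41), and 892 bases of its exons overlap Lrrc61 on the other strand. Of the Tgm2 exon bases 1003 overlap Rprd1b and Gm20412, also on the other strand. With the Sertoli cell scaling 2 genes of this list rose, Kitl (0.39) and Rarres2 (0.71), and 14 fell, against 1.91% and 63.2% of all genes tested. Tgm2 went from 0.77 to 0.07 and Rarres1 from 0.87 to 0.17, and neither passed (edgeR adjusted p = 0.581 and 0.197).

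**Figure D4:**
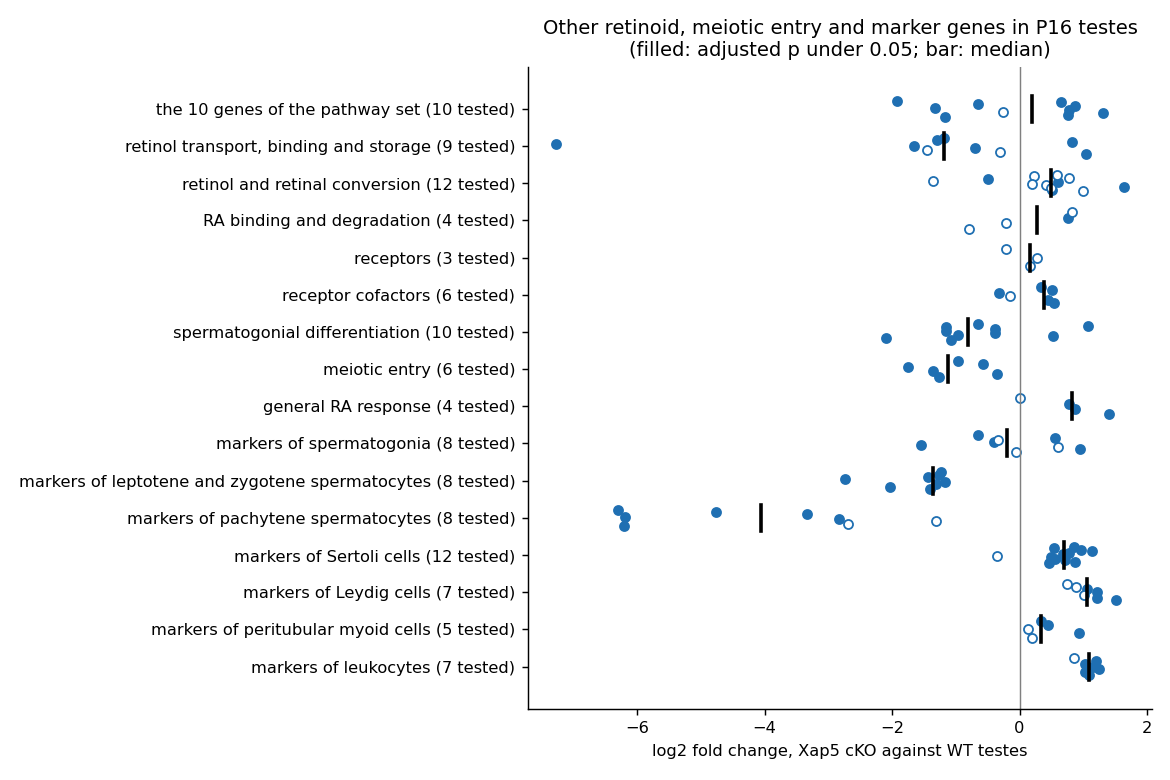
The horizontal axis is the log2 fold change in P16 testes under TMM scaling, Xap5 cKO over WT, with a point for each tested gene, filled where the adjusted p was under 0.05, and a bar for the median of each list. Genes of meiotic entry lie left of zero like the leptotene, zygotene and pachytene markers, while the general retinoic acid response genes that passed lie right of zero with most somatic cell markers.

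The 5 genes whose log2 CPM followed that of Stra8 most closely over the 6 testis libraries, of 15220 compared, were Top2a (Pearson r = 0.9995), Nek1 (0.9993), the entry Majin-2, a numbered entry of Majin (0.9987), Styx (0.9986) and Sfmbt2 (0.9986). All 5 fell, with log2 fold changes from -2.34 for Majin-2 to -0.70 for Styx. These r describe 2 genotypes of 3 libraries each, and 333 genes had an r above 0.99.

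In Xap5l KO sperm 1 of the 8 genes tested rose, Aldh1a2, none fell, and 7 did not pass the edgeR test, against 12.1% of the 20945 genes tested in sperm that passed, 9.02% higher and 3.07% lower. At an unadjusted p under 0.05, 1 gene was higher and 3 were lower, and the share of all genes at this threshold was not counted. None was called past a 2-fold change, against 8.86% of all genes tested, 7.59% higher and 1.27% lower. At an adjusted p under 0.05, DESeq2 had 1 of these genes higher and 1 lower, against 2929 higher and 1143 lower of all 20945 genes tested. The 2 groups of libraries did not overlap for 4 of the 8 genes, compared with 38.3% of all genes tested, 19.2% in each direction. Markers of other cells were also counted. The summed markers of epididymal epithelium were 9570 to 12200 CPM in WT and 6450 to 8130 in Xap5l KO, those of leukocytes 863 to 1000 and 211 to 567, and those of red blood cells 2930 to 14700 and 1090 to 3680. All 6, 7 and 3 tested markers of these lists had log2 fold changes below 0, and none of the markers was at 0 in all libraries. Spermatid markers, which remain in sperm, summed to 23000 to 47600 CPM in WT and 24800 to 45200 in Xap5l KO, and pachytene markers to 401 to 639 and 980 to 1080. Of 8 spermatid markers 7 had log2 fold changes above 0, 3 rose and 0 fell. The exception was Odf1 (-0.69, did not pass), the largest part of the WT sum, at 18000 ± 10100 CPM in WT and 11100 ± 5650 in Xap5l KO. Of 8 pachytene markers 6 had log2 fold changes above 0, 5 rose and 0 fell.

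**Figure D5:**
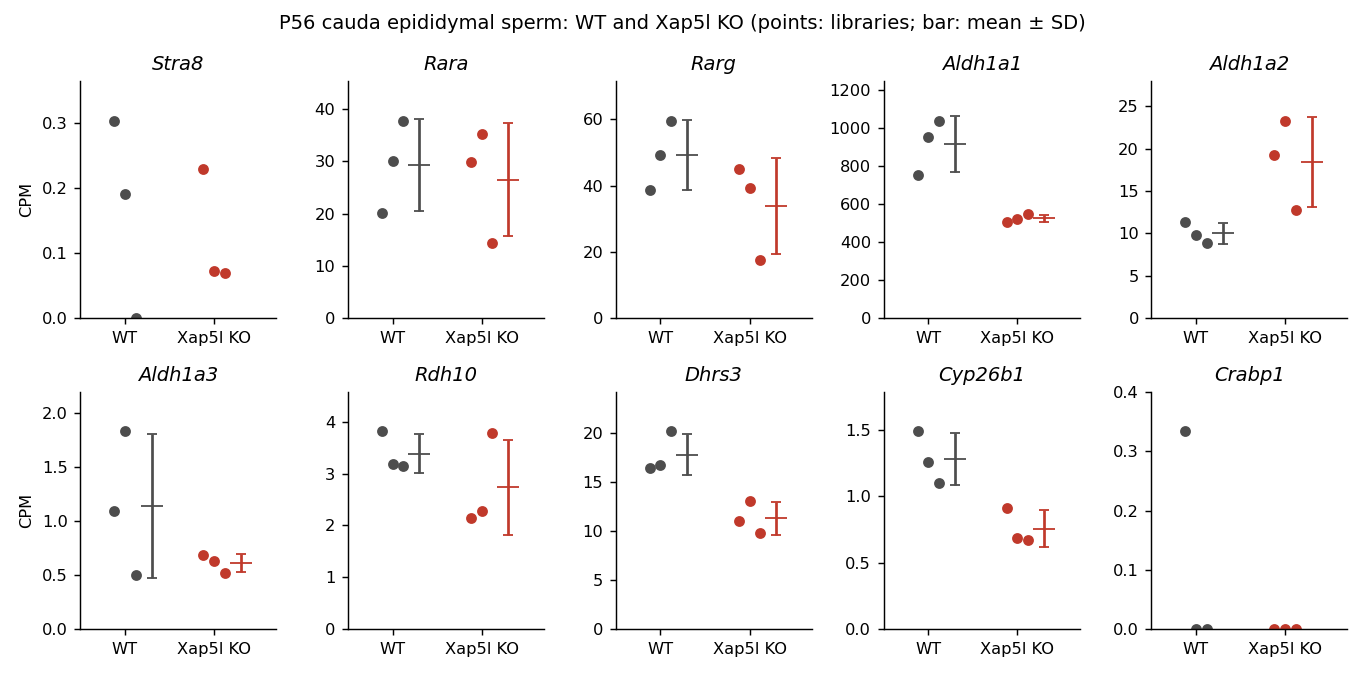
Each panel plots 1 gene in P56 cauda epididymal sperm, with CPM on the vertical axis, a point for each library and a bar for mean ± SD of 3 libraries, left out for Stra8 and Crabp1, which were not tested. Aldh1a2 is higher in all Xap5l KO libraries and Aldh1a1, Dhrs3 and Cyp26b1 are lower in all of them, of which the Aldh1a2 difference alone passed the edgeR test.

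Aldh1a2 was at 11.3, 9.77 and 8.89 CPM in the WT sperm libraries, and the Xap5l KO libraries were at 19.2, 23.3 and 12.7 CPM. Replicate 3 of the KO was close to the highest WT library, and the other KO libraries were well above it. Aldh1a2 rose 1.84-fold (log2 fold change 0.88, 95% interval 0.32 to 1.44, edgeR adjusted p = 0.0495). The call stood at the threshold and was lost in 5 of the 6 fits with a library left out, where the log2 fold change ranged from 0.67 (without Xap5l KO replicate 2) to 1.17 (without Xap5l KO replicate 3) and the adjusted p reached 0.189. Calls over all genes also changed in these fits. With replicate 2 or 3 of the WT left out, or replicate 2 of the KO, 1 gene rose and 1, 1 and 2 fell in the whole tissue, compared with 1889 and 643 when all libraries were used, and without Xap5l KO replicate 1 the numbers were 483 and 71. It was also lost with scaling by library size alone (0.91, adjusted p = 0.106).

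Aldh1a1 was by far the most abundant of the 10 genes in sperm libraries, at 185 ± 29.9 CPM per kb in WT and 107 ± 3.92 in Xap5l KO. Its libraries were at 752, 956 and 1040 CPM in WT and 508, 523 and 547 CPM in Xap5l KO. The groups did not overlap, and the log2 fold change of -0.80 (95% interval -1.38 to -0.22) did not pass with edgeR (adjusted p = 0.0691) but did with DESeq2 (-0.75, adjusted p = 0.0061) and without WT replicate 1 (-0.93, edgeR adjusted p = 0.0361). The epididymal epithelium and leukocyte markers were lower in the same libraries, and their part in this difference was not tested. The log2 ratio of Aldh1a2 to Aldh1a1 was -4.93, -5.49 and -5.74 in WT sperm, and the Xap5l KO libraries were at -3.60, -3.36 and -4.30. It was 3.1-fold higher in KO (difference 1.63, exact permutation p = 0.1, adjusted 0.12).

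Dhrs3 was at 16.4, 16.8 and 20.2 CPM in WT sperm, compared with 11, 13.1 and 9.76 CPM in the Xap5l KO libraries. All KO libraries were below all WT libraries, with a log2 fold change of -0.66 (95% interval -1.12 to -0.20, edgeR adjusted p = 0.0632). Cyp26b1, under 2 CPM in every library, was at 1.49, 1.26 and 1.1 CPM in WT and 0.914, 0.686 and 0.669 CPM in Xap5l KO. Its groups did not overlap either, at a log2 fold change of -0.77 (95% interval -1.50 to -0.03, edgeR adjusted p = 0.137).

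The receptors overlapped between genotypes in sperm. Rara was at 20.2, 30 and 37.8 CPM in WT and 29.9, 35.2 and 14.4 CPM in Xap5l KO, with a log2 fold change of -0.15 (95% interval -0.91 to 0.62) whose sign turned without Xap5l KO replicate 3 (0.23) or WT replicate 3 (0.07). Rarg was at 38.6, 49.2 and 59.6 CPM in WT and 44.9, 39.2 and 17.5 CPM in Xap5l KO, with -0.54 (95% interval -1.28 to 0.21). Replicate 3 of the KO was the lowest library for both receptors, and without it the value of Rarg was -0.15. Within libraries, Rarg was the more abundant receptor per kilobase in all 6 sperm libraries, with a log2 ratio to Rara of 0.80 ± 0.15 in WT and 0.37 ± 0.22 in Xap5l KO (difference -0.43, exact permutation p = 0.1, adjusted 0.12), whereas Rara was the more abundant in all 6 testis libraries.

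The remaining genes were low in sperm. Aldh1a3 lay between 0.496 and 1.83 CPM in WT and between 0.515 and 0.685 in Xap5l KO, overlapping (log2 fold change -0.90, 95% interval -1.96 to 0.16). Rdh10 lay between 3.15 and 3.82 CPM in WT and between 2.14 and 3.78 in Xap5l KO (-0.30, 95% interval -0.96 to 0.35). Its ratio to Dhrs3 overlapped between the groups (difference of the log2 ratio of Dhrs3 to Rdh10 -0.31, exact permutation p = 0.6) and turned to 0.05 without Xap5l KO replicate 3. Stra8 had 10, 8 and 0 counts in WT sperm, compared with 8, 4 and 4 in Xap5l KO sperm. Crabp1 had 11, 0 and 0 counts in WT and 0 in all Xap5l KO libraries. A count of 0 allows up to 3 counts, 0.0515 to 0.091 CPM in these libraries for counting error only. Neither gene was tested, and without the filter on low counts the log2 fold change of Stra8 was -0.37 (edgeR adjusted p = 0.859).

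Of the 47 other retinoid genes 33 were tested in sperm, 3 rose and 1 fell. Over all genes tested in sperm 9.02% rose and 3.07% fell, shares that also stand beside the counts of the next list. The median log2 fold change of the retinoid list was -0.26, against -0.08 over all genes tested. Lrat rose from 3.01 ± 0.604 to 5.66 ± 0.89 CPM (log2 fold change 0.90, edgeR adjusted p = 0.0484), and Rdh11, a retinal reductase, from 25.8 ± 3.44 to 47.6 ± 5.94 CPM (0.89, adjusted p = 0.0271). Rxra, at 39.4 ± 9.33 CPM in WT and 28 ± 5.82 in Xap5l KO, did not pass (-0.49, adjusted p = 0.188). Of the 18 tested genes of spermatogonial differentiation, meiotic entry and response, Rec8, a meiotic cohesin subunit, rose from 19.4 ± 2.66 to 43.3 ± 6.43 CPM (1.16, edgeR adjusted p = 0.016), and 17 did not pass. These calls depended on the libraries used. No gene of either list passed when WT replicate 2 or 3 was left out, or replicate 2 of the Xap5l KO, which are the fits in which 2, 2 and 3 genes passed over the whole tissue. When replicate 1 of the KO was left out, 1 gene of the retinoid list passed. When replicate 3 of the KO was left out, 5 other retinoid genes rose and 2 fell, and 2 genes of the other list rose and 2 fell. In that fit 3006 genes rose and 974 fell of all 21449 genes tested.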

How the data were processed

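Poly(A) RNA of P16 testes and P56 sperm was sequenced from 3 libraries per group, stated to be biological replicates. Per the labels and methods, the authors trimmed reads with Trimmomatic 0.36, mapped them to GRCm38 with HISAT2 2.1.0 and used StringTie for assembly. The values deposited by the authors are raw counts, whole numbers for each gene, in a separate table for each tissue. The counting tool and its handling of strand and of reads with several positions are not given in the sources used here. The deposited tables were analysed separately by tissue with R 4.3.3.

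Genes were filtered with filterByExpr, scaled by TMM and tested on genotype with the quasi-likelihood test of edgeR 4.0.16, with Benjamini-Hochberg adjustment over all genes tested. Ratios were tested by exact two-sided permutation (SciPy 1.17.1). Exon lengths, positions and overlaps came from GENCODE M21 of GRCm38 and promoter windows from RefSeq. The members and lists were chosen with earlier results of these data known. Genes named were the 10 members, the targeted genes, in each list up to 8 genes with an adjusted p under 0.05 and at least 1 CPM in either genotype, by size of change, and the 5 most like Stra8. A gene of these lists that the rule also names is not reported here. Others were chosen after their values were seen, namely the receptors and Cyp26a1, the general response genes, Sycp3, Rbp3 and Stra6l.

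Alternatives were no filter, at least 10 counts in every sample, RLE factors, library size alone, Sertoli marker factors, summed entries, DESeq2 1.42.0, a replicate block, no fold change threshold, adjusted p under 0.01, and leaving out each library. Same-numbered libraries did not deviate together, with correlations from -0.01 to 0.01 in testes and from -0.08 to 0.15 in sperm, so the numbers were not taken as pairs.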

Additional observations from a re-analysis of the deposited data

How the results depend on the processing

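In testes, filters, RLE factors, library size alone, DESeq2, summed entries, the replicate block, an adjusted p under 0.01 and leaving out each library kept the 9 calls among the 10 genes on their side of the threshold and in their direction. Scaling to the Sertoli cell markers left 0 of the 10 genes higher past 2-fold, turned Rara to -0.05, ended the calls of Rara, Aldh1a1, Aldh1a3 and Cyp26b1, and brought Rdh10 past the threshold. Without the fold change threshold, the testis counts were 5 higher among the 10 genes, 10 higher and 7 lower among other retinoid genes, and 5 higher and 14 lower in the meiotic entry list. With the Sertoli cell scaling, tried on the other lists after seeing the data, 0 retinoid genes were higher and 10 lower past 2-fold, and 0 genes of the meiotic entry list were higher and 14 lower. Over all 16821 genes tested, 80 were higher and 5269 lower past 2-fold with that scaling. Leaving out 1 library gave 1 (without WT replicate 1) to 2 other retinoid genes higher past 2-fold in testes.

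In sperm, the 10 genes gave 1 higher without the fold threshold, and 0 to 1 past 2-fold with a library left out (1 without Xap5l KO replicate 3). Other retinoid genes past 2-fold were 1 higher and 1 lower, and became 2 and 2 without the filter, 2 higher with DESeq2, 0 higher with the replicate block, 0 and 0 at an adjusted p under 0.01, 3 higher without the fold threshold, and 0 to 5 higher (5 without Xap5l KO replicate 3) and 0 to 1 lower with a library left out. The meiotic entry list had 1 higher and 0 lower, and became 2 higher without the filter and with library size alone, 2 higher and 1 lower with DESeq2, 0 higher at an adjusted p under 0.01, and 0 to 2 higher and 0 to 2 lower with a library left out. Over all 21449 genes tested without Xap5l KO replicate 3, 2402 were higher and 443 lower past 2-fold. With a library left out, Rara in sperm ranged from -0.41 to 0.23, and the difference in the log2 ratio of Dhrs3 to Rdh10 from -0.53 to 0.05. With the replicate block, Aldh1a2 in sperm was 0.84 (adjusted p = 0.068) and the 10 genes had 0 calls past 2-fold in sperm. The causes were not tested. Stra8 and Crabp1 in sperm had too few counts for the filter and were not tested.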

Other observations

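The start site windows found for the other genes were searched too. Over all 32851 RefSeq windows, 43.7% held any of the 4 hexamers. Of 4 Rara windows, 1 held AGGTCA on the strand of the gene, starting 34 bases after the transcription start, and another held matches to the other hexamers at 4 places. Of 2 Rarg windows, 1 held AGGTCA on the opposite strand at -225, and of 2 Aldh1a1 windows, 1 held GGGTCA on the opposite strand at -49. The Cyp26b1 window held none.

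A pair of retinoid genes under 1 CPM also passed the test. Rbp3, a retinoid carrier best known from the retina, had 22, 16 and 21 counts in the WT testis libraries and 0 in all 3 Xap5 cKO libraries. Stra6l, related to the retinol-binding protein receptor Stra6, had 8, 2 and 2 counts in WT sperm, compared with 15, 70 and 39 for Xap5l KO, with edgeR's adjusted p = 0.0321. The Stra6l call was lost in 4 of the 6 fits with a library left out and with the replicate block. Neither gene kept its call when at least 10 counts were required in every sample.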
